A study of Mus musculus with 2 samples.

Results

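The 10 genes described here carry fatty acids and cholesterol into cells, hold them there and pass them out again: Cd36, Lpl, Fabp4 and Fabp5 for uptake and transport, Plin2 for storage, Abca1, Abcg1 and Apoe for export, and the nuclear receptor Pparg and the lipid-sensing receptor Trem2. They were chosen by gene symbol, and all 10 symbols were found among the 32285 mouse genes of the files. The study measured lungs of BALB/c mice that carried 4T1 tumours, a mouse mammary carcinoma line placed in the mammary fat pad. Lungs were taken on day 14 after the cells were given. One library came from mice given IgG, the control antibody, and 1 from mice given the S100A4-11 antibody, and the tumour and the strain were common to both. The study asked what inhibition of S100A4, a small calcium-binding protein, does to the lung before metastases form. With 1 library per group and no stated number of animals, no value below has a replicate check and no test of the treatment was possible.

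Lung macrophages clear surfactant, a lipid-rich film, and so take up and break down more lipid than most cells. Cd36 is a surface receptor that brings in long-chain fatty acids and oxidised lipoproteins, and Lpl is the lipase that frees fatty acids from circulating triglyceride. Fabp4 and Fabp5 carry fatty acids inside the cell. Plin2 coats lipid droplets, the stores of neutral lipid. Abca1 and Abcg1 pump cholesterol out of the cell onto lipoprotein particles, and Apoe is a protein of those particles. Pparg is a nuclear receptor for fatty acid ligands and is required for alveolar macrophages to form. Trem2 is a macrophage surface receptor for lipids and signals through Tyrobp.

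The IgG matrix held 14411 cell barcodes and 85458143 UMIs, where a UMI is one counted RNA molecule, and the S100A4-11 matrix held 12506 and 64695542. After filters and removal of called doublets, 13658 and 11749 cells remained, with a median of 4028 and 3660 UMIs. A total of 266 barcodes occurred in both libraries, which is 1.85% of the IgG and 2.13% of the S100A4-11 barcodes. Clusters were named from marker genes, and each name below stands for cells that are like that type. The lung classes included 409 and 184 type 2 alveolar epithelial-like cells and 726 and 489 alveolar macrophage-like cells, which held 7 of 8 of their markers in at least 25% of cells. The other classes described most are 154 and 107 interstitial macrophage-like, 437 and 489 classical and 452 and 532 nonclassical monocyte-like, 2320 and 2027 neutrophil-like, 443 and 325 immature granulocyte-like, 1194 and 803 fibroblast-like and 3341 and 2713 endothelial-like cells. Summed markers of other cell types differed between the libraries outside their own cells, in both directions. Those of type 2 alveolar cells were 0.292 to 0.735 times the IgG level in each macrophage, monocyte, granulocyte, fibroblast and endothelial class of at least 50 cells per library. Erythroid markers were 0.499 times the IgG level in nonclassical monocyte-like cells and 1.75, 1.83, 2.26 and 3.47 times it in classical monocyte-like, interstitial macrophage-like, endothelial-like and fibroblast-like cells. Neutrophil markers were 0.317 times the IgG level in alveolar macrophage-like cells and 1.36 times it in interstitial macrophage-like cells, with 2.13 in general capillary endothelial-like and 3.46 in adventitial fibroblast-like cells. The part of these in the ratios below was not tested, and values are given beside some of the results they touch.

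A level is the gene's UMIs scaled to 1000000 UMIs of the class (CPM). A ratio is the S100A4-11 level over the IgG level. It was called higher or lower at 1.5-fold or more with an exact 95% interval that excludes 1, and only for genes with at least 20 UMIs over both libraries. All intervals cover counting error only, and UMIs of 1 cell are not independent. Levels are compared between classes and libraries for 1 gene at a time, never between genes.

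The RefSeq starts of 4 members are shown because their levels mark 4 different compartments of this lung: Cd36 the blood vessels, Plin2 the alveolar macrophages, Trem2 the interstitial macrophages, and Abca1 a range of cells that includes fibroblasts. Each run is the 100 bases before the RefSeq start in GRCm38.p6, read 5′ to 3′ on the gene's strand. They lie at chr5:17835897-17835996 on the minus strand, chr4:86670060-86670159 on the minus strand, chr17:48346301-48346400 on the plus strand and chr4:53159896-53159995 on the minus strand. Capitals mark chosen matches to motifs searched on both strands, and 1 further match in Abca1 is left in lower case and given below.
Cd36: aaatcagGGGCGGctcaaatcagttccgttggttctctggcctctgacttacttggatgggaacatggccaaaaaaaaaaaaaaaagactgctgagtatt
Plin2: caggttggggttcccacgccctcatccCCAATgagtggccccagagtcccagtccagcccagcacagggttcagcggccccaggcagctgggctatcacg
Trem2: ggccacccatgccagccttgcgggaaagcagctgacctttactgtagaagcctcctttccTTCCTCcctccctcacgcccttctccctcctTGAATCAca
Abca1: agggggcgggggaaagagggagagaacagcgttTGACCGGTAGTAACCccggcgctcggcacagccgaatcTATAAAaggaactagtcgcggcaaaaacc

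In Abca1 the first capitals, at -67 to -53 from the start, match GGTNA, 5 bases of any kind and GGTCA on the reverse strand, the spaced repeat of the kind that liver X receptors bind. Of 32851 promoter windows of 250 bases, 0.177% held this pattern. The second capitals, at -29 to -24, match the TATA box letters TATAAA, which 12.4% of windows held. A GC box, GGGCGG, also lies in the Abca1 run at -97 to -92, in lower case. In Cd36 the capitals at -93 to -88 are the same box, present in 32.7% of windows. In Plin2 the capitals at -73 to -69 are a CCAAT box, present in 33.8%. In Trem2 they match GAGGAA on the reverse strand, an ETS-type site held by 23.3% of windows, and TGANTCA, an AP-1-type site held by 6.75%. A PPAR-type repeat, GGNCA, 1 base of any kind and AGGNCA, was in none of the 10 RefSeq entries for 6 members and in 0.694% of all windows. A match is a run of letters and was not measured as a binding site. No RefSeq promoter was used for Abcg1, Fabp4, Fabp5 or Lpl. All 10 genes are protein coding. In the GRCm38 annotation Fabp5 at chr3:10012548-10016607 and Fabp4 at chr3:10204088-10208576 lie near each other, and the others lie on chromosomes 4 (Plin2, Abca1), 5 (Cd36), 6 (Pparg), 7 (Apoe), 8 (Lpl) and 17 (Abcg1, Trem2).

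Each class held its own combination of these genes, and this pattern was alike in both libraries. Alveolar macrophage-like cells had the highest Plin2, Abcg1 and Lpl of the 26 named classes, interstitial macrophage-like cells had the highest Apoe and Trem2, and endothelial-like cells had the highest Cd36. Nonclassical monocyte-like cells were at or above alveolar macrophage-like cells for Pparg, Fabp4 and Cd36. Cells were also thinned to 500 UMIs each, so that depth did not differ. At that depth alveolar macrophage-like cells held a mean of 1.79 and 1.81 of the 10 genes per cell, interstitial macrophage-like cells 1.53 and 1.51, nonclassical monocyte-like cells 1.15 and 1.16, and neutrophil-like cells 0.322 and 0.245.

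**Figure D1:**
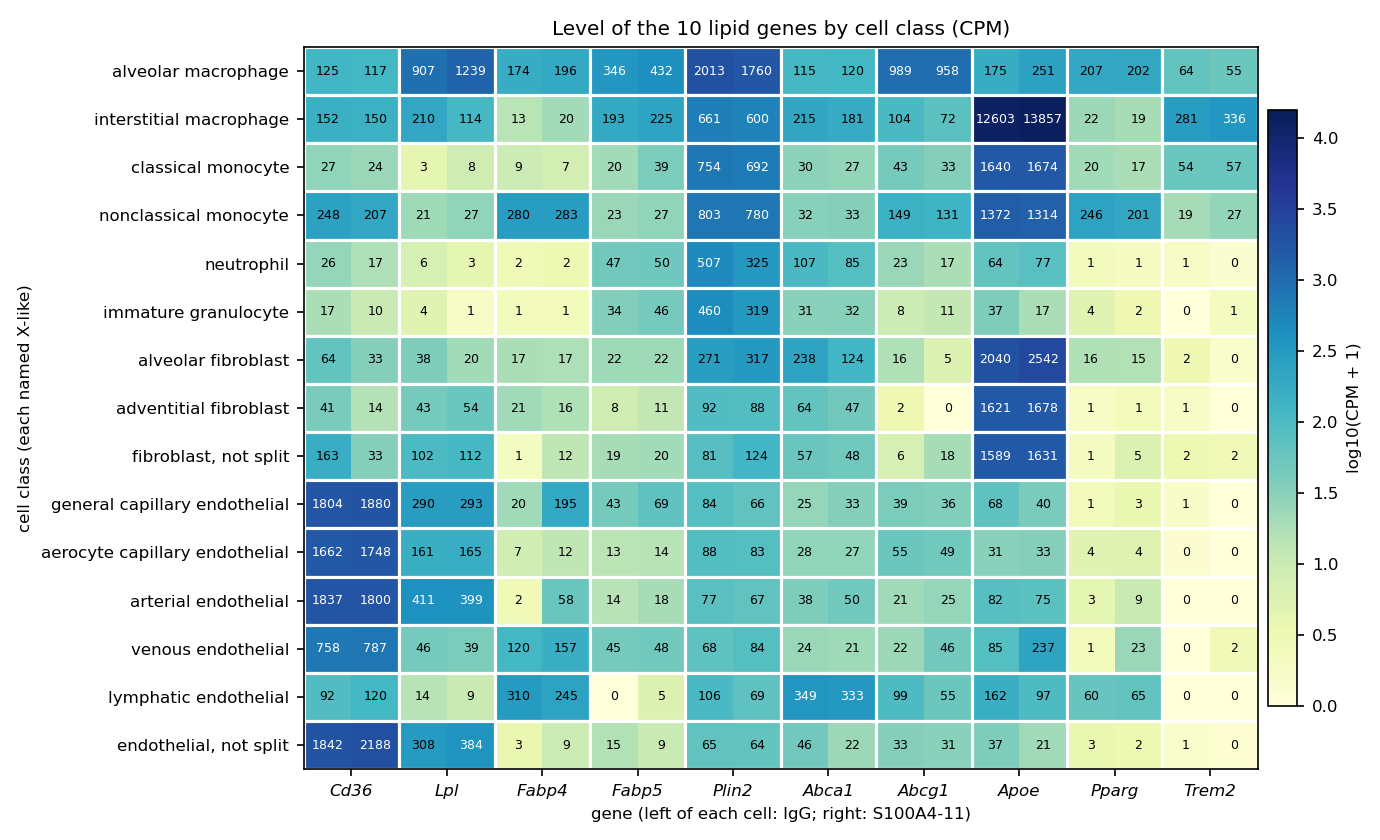
Level of each of the 10 genes in each macrophage, monocyte, granulocyte, fibroblast and endothelial class, in CPM, with the IgG library in the left part of each cell and the S100A4-11 library in the right part. Colour is log10(CPM + 1). Plin2, Abcg1 and Lpl were highest in alveolar macrophage-like cells, Apoe and Trem2 in interstitial macrophage-like cells and Cd36 in endothelial-like cells. Levels under 0.5 CPM print as 0, and lymphatic endothelial-like cells numbered 35 and 33.

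Between libraries, 13 of 74 gene and class pairs with enough UMIs were called over 8 broad classes, 4 higher and 9 lower in the S100A4-11 library. Plin2 was lower in neutrophil-like cells and Fabp5 was higher in classical monocyte-like cells, and both calls held under every other way of filtering, clustering, scaling and weighting that gave a value. Neither reaches a limit of 2-fold under the main settings. The other 11 calls were lost under at least 1 of those alternatives. In alveolar macrophage-like cells none of 10 members was called, where 1.29% of all measured genes were called higher and 3.44% lower. In nonclassical monocyte-like cells none of 10 was called either, where 1.63% of genes were called higher and 3.75% lower. The median log2 ratio of the members was 0.01 and -0.01 in these 2 classes, and that of all genes was -0.03 and -0.06.

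Neutrophil-like cells had 3 of 9 measured members called lower (Plin2, Cd36, Lpl), against 5.36% of genes, and none higher, against 1.64%. Fibroblast-like cells had 3 of 9 called lower (Abca1, Abcg1, Cd36), against 5.17%, and none higher, against 1.73%. Immature granulocyte-like cells had 2 of 7 called lower (Cd36, Apoe), against 3.09%, and none higher, against 2.98%. Interstitial macrophage-like cells had 1 of 10 called lower (Lpl), against 3.41%, and none higher, against 3.14%. Classical monocyte-like cells had 2 of 10 called higher (Fabp5, Lpl), against 2.05%, and none lower, against 1.97%. Endothelial-like cells had 2 of 9 called higher (Fabp4, Pparg), against 1.34%, and none lower, against 4.35%. With so few members, these counts describe the genes named and nothing wider.

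**Figure D2:**
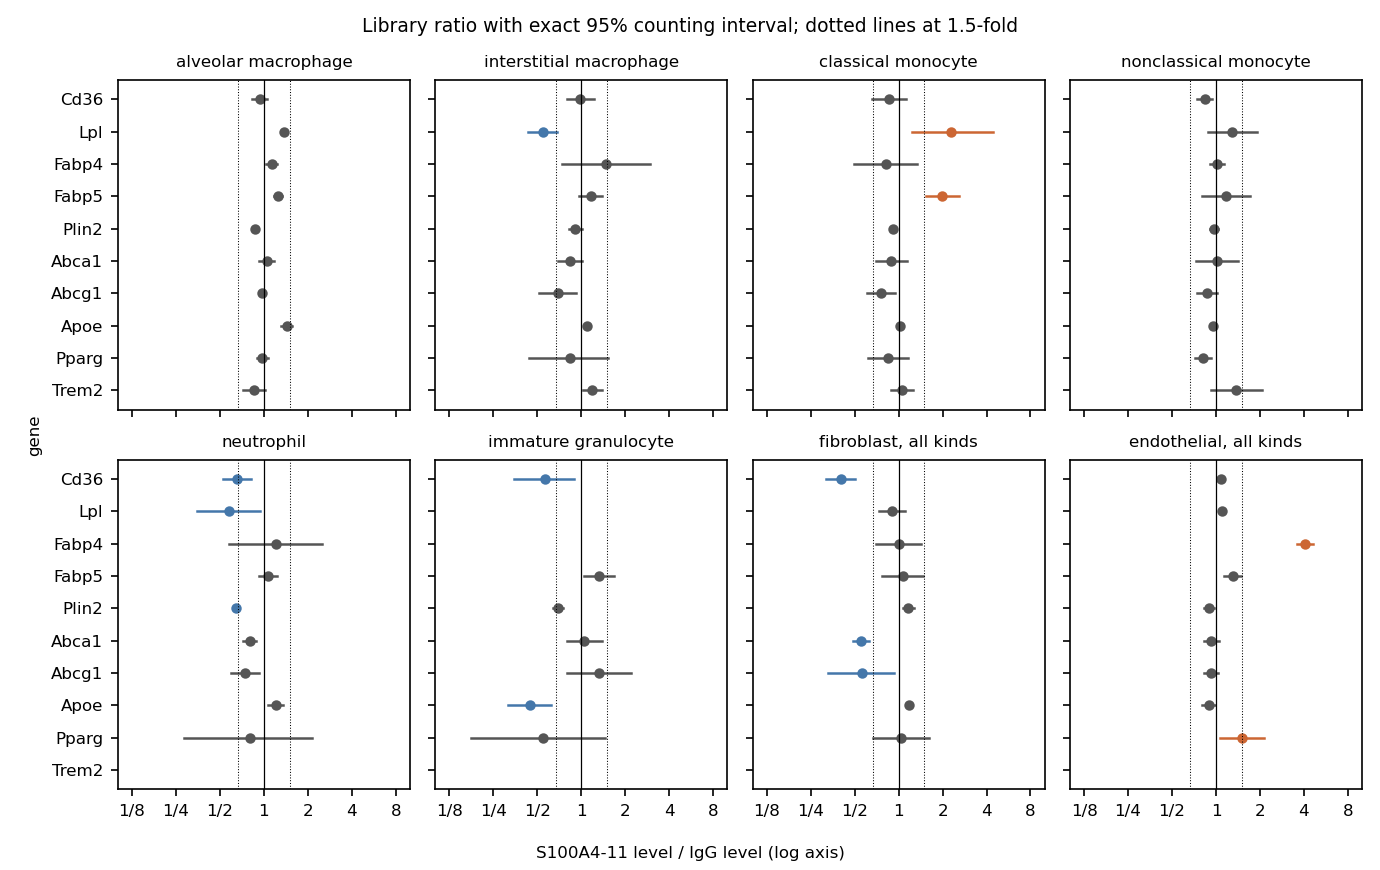
Library ratio, S100A4-11 over IgG, of each measured gene in 8 broad classes on a log axis, with exact 95% counting intervals and dotted lines at 1.5-fold. Orange marks genes called higher, blue those called lower and grey those not called. Plin2 in neutrophil-like cells lies at 0.641, and Fabp4 in endothelial-like cells at 4.04.

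Plin2, the droplet coat, was lower in neutrophil-like cells of the S100A4-11 library. Its level was 507 CPM in the IgG and 325 CPM in the S100A4-11 library, from 4656 and 2477 UMIs, with intervals of 492 to 521 and 312 to 338. The ratio was 0.641 (0.610 to 0.673), which is 1.56-fold lower. Plin2 was found in 55.0% and 43.4% of cells, and in 18.3% and 11.6% after thinning to 500 UMIs. In B-like cells, taken as the background, it was found in 4.08% and 3.45% of cells, at median depths of 2872.5 and 2814 UMIs against 3706.5 and 3539 in neutrophil-like cells. The share in neutrophil-like cells was above that background in both libraries.

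All 6 clusters of neutrophil-like cells had less Plin2 in the S100A4-11 library. They come from the same 2 libraries and are not replicates. Cluster 42, with only 59 and 42 cells, went from 603 to 264 CPM with a ratio of 0.438. Its leading genes were Gm10801, Gm10800, Gm39459 and Gm40645, none of them on the neutrophil marker list. Cluster 35 went from 483 to 299 CPM at 0.619, and cluster 34 from 479 to 302 at 0.630. Cluster 29 had 541 and 353 CPM at 0.652 and cluster 30 had 489 and 340.5 CPM at 0.697. The intervals of these 5 exclude 1. Cluster 11, the smallest difference, had 431 and 360.0 CPM at 0.836 (0.579 to 1.196), which includes 1. The 5 cells with most Plin2 held 3.18% and 3.71% of the UMIs of all neutrophil-like cells.

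Immature granulocyte-like cells, the precursors, had 460 and 319 CPM, a ratio of 0.693 (0.640 to 0.750), which is just short of the 1.5-fold limit. Plin2 was found in 83.5% and 67.4% of them, and in 21.0% and 14.5% after thinning. Type 2 alveolar markers summed to 294 and 92.0 CPM in neutrophil-like cells, and type 2 alveolar epithelial-like cells themselves held 126 and 78.6 CPM of Plin2, which is below the neutrophil level. Alveolar macrophage markers, from the class with most Plin2, summed to 45.6 and 35.9 CPM in neutrophil-like cells and to 4411 and 4141 CPM in their own class. The part of either in the Plin2 ratio was not tested.

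Monocytes and macrophages differed less. Classical monocyte-like cells had 754 and 692 CPM of Plin2 with a ratio of 0.917, nonclassical monocyte-like cells 803 and 780 with 0.971, and interstitial macrophage-like cells 661 and 600.5 with 0.909. Alveolar macrophage-like cells had the highest level at 2013 and 1760 CPM, a ratio of 0.874 (0.849 to 0.900). The 4 classes kept their order in both libraries, and the range of 2 libraries of each did not overlap that of the next. Whether the ratio in neutrophil-like cells differs from that in the other classes was not tested. In alveolar fibroblast-like cells Plin2 was 271 and 317 CPM, a ratio of 1.17, and in endothelial-like cells it was 80.5 and 71.8 CPM.

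**Figure D3:**
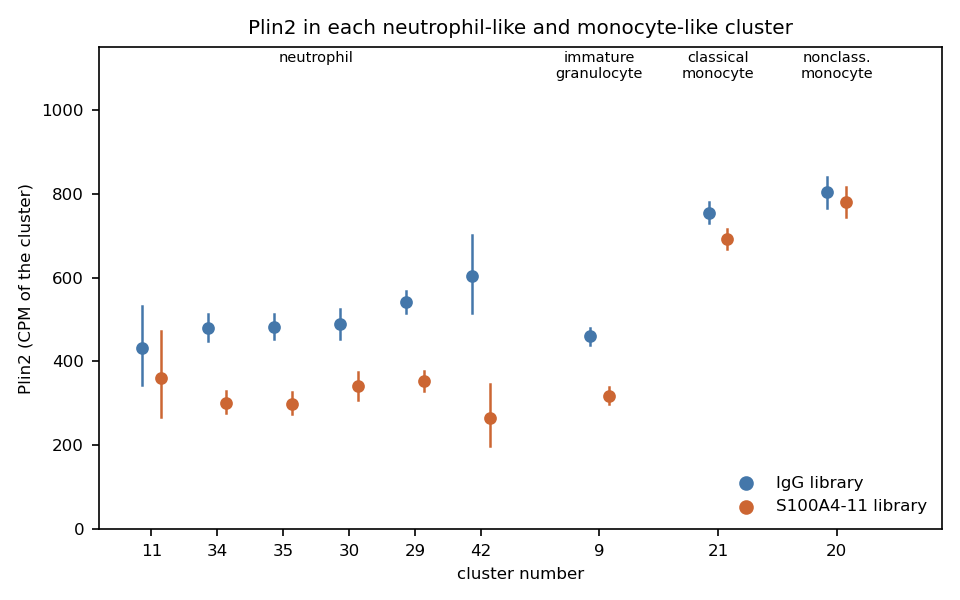
Plin2 in CPM in each cluster of neutrophil-like, immature granulocyte-like and monocyte-like cells, with exact 95% Poisson intervals as bars, IgG in blue and S100A4-11 in orange. All 6 neutrophil-like clusters lie lower in the S100A4-11 library, from 431 against 360 CPM in cluster 11 to 603 against 264 CPM in cluster 42. Cluster 42 held 59 and 42 cells. The monocyte-like clusters lie close together, at 754 and 692 CPM and at 803 and 780 CPM.

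Cd36, the fatty acid receptor, was highest in blood vessel cells of this lung. Endothelial-like cells had 1695 and 1831 CPM, a ratio of 1.08 (1.06 to 1.10), and 85.8% and 86.6% of them held it. Its level was 1804 and 1880 CPM in general capillary, 1662 and 1748 CPM in aerocyte and 1837 and 1800 CPM in arterial endothelial-like cells. The general capillary and arterial ranges overlap, and the aerocyte range lies below both. Venous endothelial-like cells had less, at 758 and 787 CPM, and 35 and 33 lymphatic endothelial-like cells had 91.6 and 120 CPM. The clusters that were not split into a kind had 1842 and 2188 CPM.

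Outside the vessels, nonclassical monocyte-like cells had 248 and 207 CPM of Cd36, interstitial macrophage-like cells 152 and 150 CPM, and alveolar macrophage-like cells 124.7 and 117 CPM. None of the 3 was called. Classical monocyte-like cells held only 27.2 and 23.5 CPM. In pericyte-like cells, the mural cells of capillaries, Cd36 was 1032 and 965 CPM. Epithelial classes also held more than nonclassical monocyte-like cells on the mean of both libraries. Type 2 alveolar epithelial-like cells had 604 to 633 CPM over the 2 libraries. The few type 1 alveolar and airway epithelial-like cells had 201 to 390 and 176 to 328 CPM.

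Cd36 was lower in the S100A4-11 library in several classes that hold little of it. Fibroblast-like cells had 72.9 and 29.3 CPM, a ratio of 0.402 (0.320 to 0.502), and 12.5% and 7.22% of them held a UMI. The Cd36 ratio was 0.766 with every deposited barcode kept, and the call was lost then, with doublets kept and with every cell weighing the same. The share after thinning was 2.51% and 2.62%, at median depths of 4014 and 3064 UMIs. The ratio was 0.520 in alveolar, 0.352 in adventitial and 0.205 in fibroblast-like cells of no kind, where 71.6% and 70% of UMIs came from 5 cells. Neutrophil-like cells had 25.6 and 16.7 CPM at 0.651 (0.520 to 0.811), and immature granulocyte-like cells 17.1 and 9.63 CPM at 0.562 (0.348 to 0.885). These Cd36 calls were lost in 4 of 15 and 6 of 14 alternatives, and the ratios turned above 1 in some, up to 1.06 and 1.73.

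B-like cells, which serve as a background here, had 34.0 and 22.5 CPM of Cd36 at a ratio of 0.661, and 8.51% and 4.87% held a UMI. The levels in granulocytes lie at or below this background. The 6 endothelial markers summed were also lower in fibroblast-like and granulocyte classes. They were 356 and 141 CPM in fibroblast-like cells at 0.396, 109 and 67.8 CPM in neutrophil-like cells at 0.620, and 73.3 and 42.1 CPM in immature granulocyte-like cells at 0.574. None of the 6 was at 0 in any of these classes. Within endothelial-like cells they summed to 8679 and 8683 CPM. Elsewhere the marker and Cd36 ratios lay further apart. They were 0.706 and 0.986 in interstitial macrophage-like, 0.705 and 0.935 in alveolar macrophage-like and 0.510 and 0.835 in nonclassical monocyte-like cells. Gpihbp1, the capillary protein that anchors Lpl, was likewise lower in fibroblast-like cells, at 74.6 and 34.1 CPM with a ratio of 0.458. Their part in the Cd36 ratios was not tested.

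**Figure D4:**
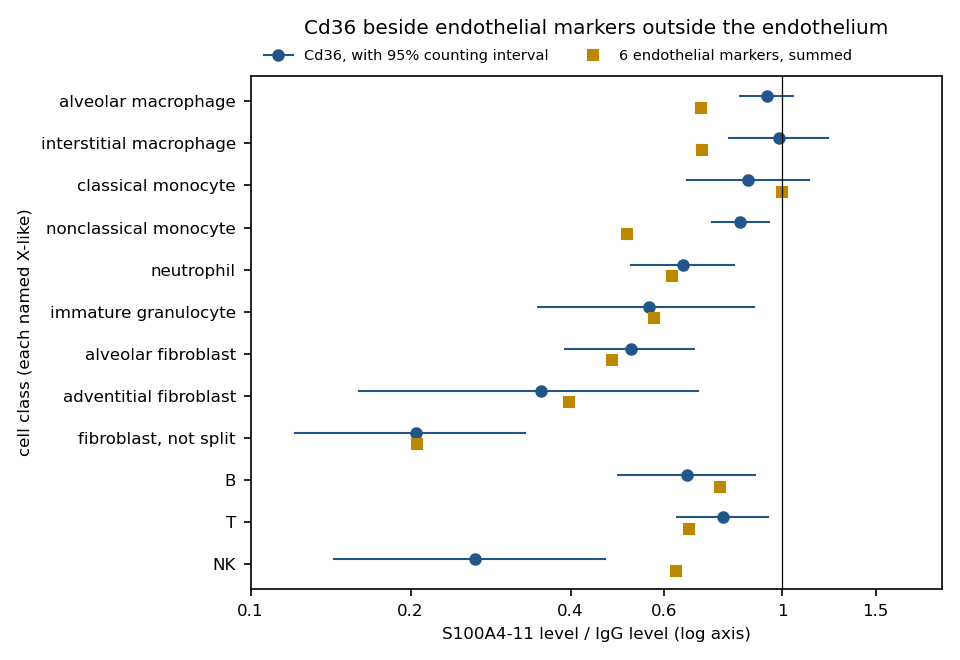
Library ratio of Cd36 (blue, with exact 95% counting intervals) and of 6 endothelial markers summed (yellow squares) in 12 classes that are not endothelial, on a log axis. Both lie below 1 in most of these classes. In fibroblast-like cells of no kind they are 0.205 and 0.206, in neutrophil-like cells 0.651 and 0.620, and in classical monocyte-like cells 0.863 and 0.998.

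Lpl, the lipase, was highest in alveolar macrophage-like cells, at 907 and 1239 CPM. The ratio of 1.37 (1.32 to 1.42) excludes 1 but falls short of 1.5-fold, and 93.4% and 91.8% of cells held it. Arterial endothelial-like cells had 411 and 399 CPM, general capillary 290 and 293 CPM, aerocyte 161 and 165 CPM and venous 46.1 and 39.3 CPM, with ratios of 0.852 to 1.02. Level thus differed several-fold among these named endothelial kinds and little between libraries. The clusters not split into a kind differed more, at 308 to 384 CPM over the 2 libraries.

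Interstitial macrophage-like cells had 210 and 114 CPM of Lpl, a ratio of 0.544 (0.433 to 0.678), and were called lower. Their share of cells with Lpl was alike at 33.8% and 33.6%, and 5 cells held 48.7% and 49.5% of the UMIs. With every deposited barcode kept the Lpl ratio was 0.695 and the call was lost. Alveolar macrophage markers, from the class with most Lpl, summed to 127 and 42.2 CPM in interstitial macrophage-like cells, a ratio of 0.331. Their part in the Lpl ratio was not tested. Classical monocyte-like cells had 3.41 and 7.83 CPM from 16 and 36 UMIs, a ratio of 2.30 (1.24 to 4.44). That call was lost with doublets kept, at 1.51, and at Leiden resolution 3, and the ratio was 11.2 with each library clustered alone. Neutrophil-like cells had 5.88 and 3.41 CPM from 54 and 26 UMIs, a ratio of 0.580 (0.349 to 0.942) that was lost in 4 of 15 alternatives, with Lpl ratios up to 0.853. The last 2 levels lie near the 4.34 and 2.66 CPM of B-like cells, where Lpl counts as background. In alveolar fibroblast-like cells Lpl was 37.7 and 20.1 CPM, a ratio of 0.533, where 7.66% of genes were called lower and 2.15% higher. Lpl was 102 and 112 CPM in the fibroblast-like cluster of no kind.

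Fabp4, a fatty acid carrier best known from fat cells and capillaries, was highest in nonclassical monocyte-like cells, at 280 and 283 CPM, and in the few lymphatic endothelial-like cells, at 310 and 245 CPM. These ranges overlap. Alveolar macrophage-like cells had 174 and 196 CPM with a ratio of 1.13, and classical monocyte-like cells had 8.51 and 6.96 CPM. Venous endothelial-like cells had 120 and 157 CPM, and 20.6% and 21.2% of them held it. That range overlaps the wide one of general capillary endothelial-like cells given below.

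In endothelial-like cells as a whole Fabp4 was 18.6 and 75.3 CPM, a ratio of 4.04 (3.57 to 4.59), from 331 and 1020 UMIs. It was found in 2.04% and 2.51% of cells, so the levels differed far more than the shares. Cells with at least 10 Fabp4 UMIs numbered 11 and 17, and they held 54.1% and 84.2% of the UMIs. The other endothelial-like cells had 8.62 and 12.02 CPM. Without cells of at least 10 Fabp4 UMIs the ratio was 1.39 and the call was lost.

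General capillary endothelial-like cells carried most of this difference, at 20.4 and 195.5 CPM, where 1.59% of genes were called higher and 2.78% lower. Here 3 IgG and 10 S100A4-11 cells had at least 10 Fabp4 UMIs, which is 0.435% and 1.99% of the class, and they held 84.4% and 97.2% of its Fabp4 UMIs. The highest held 38 UMIs in the IgG and 176 in the S100A4-11 library. These 13 cells were picked by their Fabp4 after its values were seen, so the following is a description. All 13 held Igfbp7, Sparcl1, Hspg2, Rflnb and Cavin3. Hspg2, a basement membrane proteoglycan, was at 830 CPM against 20.9 CPM in the other general capillary-like cells, and Igfbp7, a secreted vessel protein, at 14815 against 1194 CPM. Fabp5 was at 479 against 48.2 CPM and Pparg, in 5 of the 13, at 42.8 against 1.45 CPM. Cd36 was at 616 against 1855 CPM, and Lpl at 8.56 against 295 CPM. All 6 adipocyte markers (Adipoq, Lep, Plin1, Cidec, Car3, Adrb3) were at 0 UMIs in the 13 cells.

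**Figure D5:**
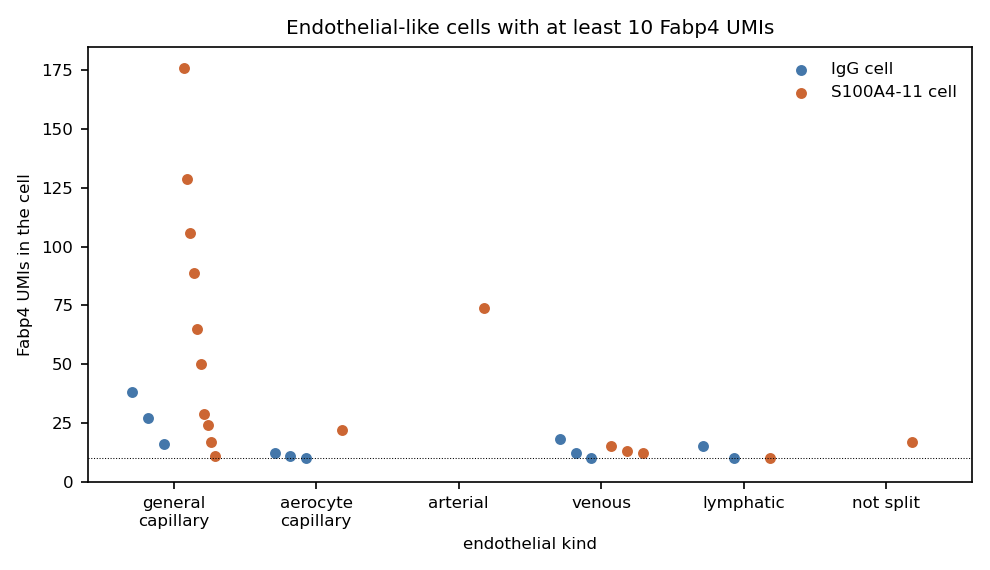
Each point is 1 endothelial-like cell with at least 10 Fabp4 UMIs (dotted line), by endothelial kind and library, and the height is its number of Fabp4 UMIs. The general capillary kind holds 3 IgG and 10 S100A4-11 cells, with highest values of 38 and 176 UMIs. The arterial kind holds a single such cell, from the S100A4-11 library.

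Classical monocyte-like cells had more Fabp5, the second carrier, in the S100A4-11 library. Its level was 19.6 and 39.0 CPM, from 92 and 179 UMIs, with intervals of 15.8 to 24.0 and 33.5 to 45.1 that do not overlap. The ratio was 1.99 (1.54 to 2.59). Fabp5 was found in 9.61% and 14.3% of cells at median depths of 10483 and 9097 UMIs, and in 1.37% and 1.43% after thinning, a depth that shows no difference. The background in B-like cells was 16.6 and 16.7 CPM, in 4.08% and 3.52% of cells, and the IgG level of classical monocyte-like cells was close to it. Alveolar macrophage-like cells had 346 and 432 CPM with a ratio of 1.249 (1.17 to 1.33), not called. In interstitial macrophage-like cells 5 cells held 82.3% and 94.04% of the Fabp5 UMIs, at 193 and 225 CPM. Without those 5 cells per library the Fabp5 ratio turned from 1.16 to 0.406 and was called lower. Neutrophil-like cells had 46.8 and 50.2 CPM and nonclassical monocyte-like cells 23.4 and 27.5 CPM. The Fabp5 ratio of the latter, 1.17, ranged from 0.540 to 2.56 over the alternatives. General capillary endothelial-like cells had 43.2 and 68.5 CPM, called higher at 1.59 (1.31 to 1.92). The 3 IgG and 10 S100A4-11 cells of that class with at least 10 Fabp4 UMIs held Fabp5 at 479 CPM. The other cells of the class held 48.2 CPM, and the part of the few in this ratio was not tested.

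Abca1, the cholesterol pump, was spread over many cell types. Interstitial macrophage-like cells had 215 and 181 CPM, a ratio of 0.842 that became 0.584 and was called lower without the 5 cells with most Abca1 per library. Alveolar macrophage-like cells had 115 and 120 CPM and neutrophil-like cells 107 and 85.1 CPM. B-like cells, at 102 and 87.5 CPM, were no background for this gene. Within neutrophil-like cells, cluster 11 stood at 760 and 607 CPM, and the other 5 clusters at 66.1 to 135 CPM in the IgG and 54.6 to 112 CPM in the S100A4-11 library. Cluster 35 went from 135 to 89.0 CPM, a ratio of 0.660 (0.539 to 0.806). Over neutrophil-like cells as a whole the ratio of 0.799 was not called.

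Fibroblast-like cells had 171 and 94.6 CPM of Abca1, a ratio of 0.554 (0.487 to 0.629), and 36.5% and 24.4% of them held it. After thinning these shares were 8.12% and 6.23%. Alveolar fibroblast-like cells had 238 and 124 CPM at 0.524, while adventitial ones had 64.1 and 47.1 CPM at 0.735 and were not called. Among alveolar fibroblast-like clusters, cluster 27 had 151 and 63.5 CPM at 0.42, and cluster 46, which had most Abca1, had 423 and 395 CPM at 0.93. Cluster 46 held 301 IgG and 149 S100A4-11 cells. With the mix of clusters held equal in both libraries the ratio was 0.727, and the call was lost. Endothelial-like cells had 37.1 and 34.5 CPM. In those not split into a kind Abca1 was 46.3 and 22.3 CPM at 0.481, where 11% of genes were called lower and 2.71% higher. That ratio lies below those of both its clusters. Cluster 0, of 701 and 818 cells, had 17.0 and 16.3 CPM at 0.961. Cluster 6, of 540 and 273 cells, had 82.8 and 44.9 CPM at 0.542. The part of the cluster mix was not tested.

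Abcg1, the second pump, was an alveolar macrophage gene here, at 989 and 958 CPM with a ratio of 0.969 (0.931 to 1.01), and 95.7% and 93.9% of these cells held it. Nonclassical monocyte-like cells had 149 and 131 CPM and interstitial macrophage-like cells 104 and 72.1 CPM. The ratio of the latter, 0.690 (0.512 to 0.923), lay just inside the 1.5-fold limit and was not called. Without the 5 cells with most Abcg1 in each library it was 0.570 and was called. Alveolar macrophage markers were 0.331 times the IgG level in interstitial macrophage-like cells, and their part was not tested. Classical monocyte-like cells had 43.4 and 32.9 CPM and neutrophil-like cells 23.1 and 17.2 CPM, both below 1.5-fold. In fibroblast-like cells Abcg1 was 11.2 and 6.29 CPM, called lower at 0.561 (0.326 to 0.928), with 65.7% and 61.9% of the UMIs in 5 cells, and below the 29.7 and 37.0 CPM of B-like cells. With every cell weighing the same this Abcg1 ratio was 1.08. The 97 and 85 venous endothelial-like cells had 22.3 and 46.4 CPM, called higher at 2.08. In that class 2.99% of genes were called higher and 3.82% lower. Alveolar macrophage markers summed to 5.58 and 35.7 CPM there, and their part was not tested.

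Apoe, the lipoprotein protein, was the mark of interstitial macrophage-like cells, at 12603 and 13857 CPM with a ratio of 1.10 (1.08 to 1.12). Alveolar fibroblast-like cells had 2040 and 2542 CPM at a ratio of 1.246 with an interval up to 1.29, not called, and came next in both libraries. Classical monocyte-like cells had 1640 and 1674 CPM and adventitial fibroblast-like cells 1621 and 1678 CPM, and these ranges overlap. Nonclassical monocyte-like cells had 1372 and 1314 CPM, a ratio of 0.957 that was 0.528 and called lower with each library clustered alone.

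Alveolar macrophage-like cells held far less Apoe, at 175.5 and 251 CPM. Their ratio was 1.43 (1.31 to 1.56), short of the limit, and without the 5 cells with most Apoe per library it was 1.14. The share of alveolar macrophage-like cells with Apoe was 18.7% and 17.996%. B-like cells, at 561.5 and 556 CPM, held more than they did. Immature granulocyte-like cells had 37.5 and 16.8 CPM, called lower at 0.447 (0.316 to 0.622), with 68.5% and 51.1% of UMIs in 5 cells. This Apoe call was lost in 5 of 14 alternatives, without those 5 cells among them, and the ratio was 0.915 with each library clustered alone. Venous endothelial-like cells had 85.1 and 237 CPM, called higher at 2.79 (2.04 to 3.84), and 24.7% and 47.1% of them held it. Interstitial macrophage markers, from the class with most Apoe, summed to 27.9 and 57.1 CPM there, and B markers to 2.79 and 66.0 CPM. Neutrophil markers went the other way, at 671 and 202 CPM. The part of these in the venous Apoe ratio was not tested. General capillary endothelial-like cells had 68.3 and 40.1 CPM, called lower at 0.588, with 62.6% and 30.6% of UMIs in 5 cells.

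Pparg stood at 207 and 202 CPM in alveolar macrophage-like cells, a ratio of 0.973 (0.891 to 1.06). Nonclassical monocyte-like cells had 246 and 201 CPM at 0.818 (0.722 to 0.926), and the ranges of the 2 classes overlap. It was found in 68.7% and 63.6% of the former at median depths of 8304.5 and 8140 UMIs, and in 47.8% and 43.0% of the latter at 4128.5 and 3725.5 UMIs. After thinning the shares were 9.78% and 10.4% against 12.8% and 13.3%. B-like cells held it in 0.466% and 0.225% of cells. Interstitial macrophage-like cells, at 22.3 and 18.5 CPM, and classical monocyte-like cells, at 20.01 and 17.0 CPM, had far less. Endothelial-like cells had 3.77 and 5.68 CPM from 67 and 77 UMIs, called higher at 1.51 (1.07 to 2.12), at the edge of the limit. With at least 500 genes per cell that ratio was 0.930.

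Trem2 was measured in macrophage and monocyte classes only, among the 8 broad classes. Interstitial macrophage-like cells had 281 and 336 CPM, a ratio of 1.19 (1.03 to 1.38), and 70.1% and 73.8% of them held it. Alveolar macrophage-like cells had 64.2 and 54.9 CPM and classical monocyte-like cells 54.1 and 57.2 CPM, and these ranges overlap. Nonclassical monocyte-like cells had 19.4 and 26.6 CPM, and their Trem2 ratio of 1.37 ranged from 0.663 to 2.004 over the alternatives. None was called. B-like cells held 0 UMIs in both libraries, which allows up to 1.09 and 0.725 CPM at 3 counts per library. Neutrophil-like cells held 7 and 3 UMIs and endothelial-like cells 7 and 2. Tyrobp, the Trem2 signalling partner, was at 1872 and 1994 CPM in interstitial macrophage-like cells, with no call.

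Other genes of lipid handling, a list of 50, gave 9 higher and 16 lower calls over the same 8 classes. These are calls of gene and class pairs, out of every listed gene measured in every class, and G0s2 counts in several classes. Of all measured genes, 1.29% to 3.14% were called higher and 1.97% to 5.36% lower in these classes. In alveolar macrophage-like cells 3 of 42 measured genes were lower, against 3.44% of all genes, and none higher, against 1.29%. In neutrophil-like cells 2 of 39 were lower, close to the 5.36% of all genes, and 1 higher, against 1.64%. Such counts describe the genes named and nothing wider. G0s2, which restrains the droplet lipase Pnpla2, was lower in alveolar macrophage-like cells at 139 and 35.6 CPM (ratio 0.255). It was also lower in classical monocyte-like cells at 152 and 87.5 CPM (0.577). In endothelial-like cells as a whole it was lower at 98.7 and 50.5 CPM (0.512), but endothelial kinds differed in direction, as given below. It is above all a granulocyte gene, at 12830 and 13034 CPM in neutrophil-like cells. The 8 neutrophil markers were also lower in these 3 classes, at 1160 and 368 CPM in alveolar macrophage-like cells, 2498 and 1523 CPM in classical monocyte-like cells and 1057 and 627 CPM in endothelial-like cells, and their part was not tested. In T-like cells the 2 differed in direction, with G0s2 at 67.6 and 37.0 CPM and the neutrophil markers at 579 and 678 CPM. Both were lower in B-like (ratios 0.520 for G0s2 and 0.363 for the markers) and NK-like cells (0.533 and 0.346). Both were higher in general capillary (1.78 and 2.13) and arterial endothelial-like cells (3.19 and 2.08) and fibroblast-like cells of no kind (2.07 and 3.01). Both were lower in aerocyte (0.402 and 0.726), venous (0.420 and 0.300) and unsplit endothelial-like cells (0.294 and 0.243).

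Interstitial macrophage-like cells had 4 of 40 listed genes higher, against 3.14% of all genes, and 1 lower, against 3.41%. Hilpda, a lipase inhibitor that favours droplet storage, was 285 and 511 CPM at 1.79 (1.57 to 2.04). Dgat2, the last enzyme of triglyceride synthesis, was 10.4 and 28.8 CPM at 2.76 (1.43 to 5.56), from 15 and 28 UMIs. Mgll, which cleaves monoglyceride, was lower at 0.386 from 23 and 6 UMIs. Neutrophil-like cells held 517 and 496 CPM of Hilpda and 247 and 222 CPM of Dgat2. Neutrophil markers summed to 3202 and 4340 CPM in interstitial macrophage-like cells, and their part was not tested. Nr1h3, the liver X receptor of macrophages, was lower in classical monocyte-like cells at 21.3 and 11.1 CPM (0.521) and in nonclassical ones at 48.2 and 29.6 CPM (0.614). Its 2 cholesterol pump targets, Abca1 and Abcg1, were called in neither class. Abcg1 in classical monocyte-like cells was at 0.757 (0.609 to 0.939), which excludes 1 but falls short of 1.5-fold. The interval of Abca1 there, and those of both pumps in nonclassical monocyte-like cells, include 1. In neutrophil-like cells Pltp, which moves phospholipid between lipoproteins, was lower at 24.9 and 14.9 CPM (0.600), and Apoc2, the cofactor of Lpl, higher at 16.3 and 31.1 CPM (1.90). In immature granulocyte-like cells 1 of 38 was higher, against 2.98% of all genes, and 3 lower, against 3.09%. There Acsl1, which activates fatty acids, was 16.2 and 31.7 CPM at 1.96. Fibroblast-like cells had 2 of 48 higher, against 1.73% of all genes, and 1 lower, against 5.17%. Fabp3, another fatty acid carrier, was among the higher at 27.3 and 43.7 CPM (1.60).

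The genes most alike in pattern were found by Pearson correlation of log2(CPM + 1) over the 26 classes, both libraries summed, as a description. Classes share libraries and depth, and no p is given. Cd36 was most like Flt1, a vascular endothelial growth factor receptor (r = 0.948), then Kcnq1 and Samd12. Plin2 was most like Tlr2, Sirpa and F10 (0.887, 0.885 and 0.881), and Trem2 like 4930430E12Rik, Fcgr1 and Mmp12 (first 0.898). Lpl was most like Gm14221 (0.875), Apoe like Blvrb (0.819), Pparg like Gm15564 (0.822), Fabp4 like Rab29 (0.756), Abcg1 like A930007I19Rik (0.754), Abca1 like Rab11fip5 (0.719) and Fabp5 like F7 (0.691). Among the 10 genes themselves Cd36 and Lpl were most alike (0.763), followed by Plin2 and Trem2 (0.695) and Abcg1 and Pparg (0.671), and Plin2 and Cd36 were least alike (-0.238).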

How the data were processed

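For each of the 2 lung libraries the authors deposited a sparse matrix of UMI counts, whole numbers per gene and cell barcode. Per the labels' protocols, cells were captured with the 10x Genomics 5' kit V2 and read by DNBseq. That text speaks of tumour tissue, while title, source and tissue labels say lung. Per the submitters' processing notes, Cell Ranger 7.1.0 and mm10 were used.

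Barcodes with under 200 genes (67 and 101) or over 15% mitochondrial UMIs (66 and 46) were removed, and Scrublet in Scanpy 1.11.5 removed 627 (4.39%) and 616 (4.98%) doublets. Both libraries were clustered together (2000 variable genes without the members and the list of 50, 30 components, 15 neighbours, Leiden resolution 2, leidenalg 0.10.2). A cluster was named for the class whose marker list was most fully detected (in 25% of its cells, at 2-fold the rest), given at least 3 such genes. This rule, and a split of the macrophage cluster, were set after clusters were seen, and 1096 (8.02%) and 755 (6.43%) cells stayed unnamed. No correction for free RNA was made. Named genes were all 10 members, the 2 listed genes farthest to each side of 1 among those called in a class, and the 3 genes most alike. The members and lists were chosen with earlier results of these data known. Levels have exact Poisson and ratios exact conditional binomial 95% intervals (SciPy 1.17.1), checked on simulated counts. TMM factors of edgeR 4.0.16 served 1 alternative. No replicate exists, so no count model was fitted.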

Additional observations from a re-analysis of the deposited data

Results flagged for a closer look

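The library ratio of Lpl took opposite directions in different classes. It was 2.30 in classical monocyte-like cells, 0.544 in interstitial macrophage-like cells and 0.580 in neutrophil-like cells. The difference between classes was not tested, since there is 1 library per group. The counts behind the monocyte and neutrophil ratios are small (16 and 36, 54 and 26 UMIs). Over the alternatives the Lpl ratio was 1.51 to 11.2 in classical monocyte-like, 0.536 to 0.695 in interstitial macrophage-like and 0.400 to 0.853 in neutrophil-like cells, and each call was lost at least once. In each library 5 cells held about equal shares, 48.7% and 49.5%, of the Lpl UMIs of interstitial macrophage-like cells. Alveolar macrophage markers were 0.331 times the IgG level in interstitial macrophage-like cells, and their part was not tested.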

How the results depend on the processing

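No paired analysis was possible because each group has 1 library. Of the 13 calls, 2 held under other filters, clusterings, scalings and weights. They were Plin2 in neutrophil-like cells (0.638 to 0.665 over 15 alternatives) and Fabp5 in classical monocyte-like cells (1.73 to 2.60 over 14). Neither reaches 2-fold under the main settings, and Fabp5 passed it in some alternatives, up to 2.60. The other 11 were lost at least once, and the cause was not tested. Of 61 pairs not called, 48 stayed so under all alternatives. Cd36 in neutrophil-like cells was 1.003 with every deposited barcode kept and 1.06 with the listed genes allowed to shape clusters. Cd36 in immature granulocyte-like cells was 1.73 at Leiden resolution 3. Abcg1 in fibroblast-like cells was 1.08 with every cell weighing the same, and Pparg in endothelial-like cells 0.930 with at least 500 genes per cell.

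The 4 members called higher became 2 at Leiden resolution 1, which gave no classical monocyte-like or immature granulocyte-like class, 8 at the lower fold limit tried and 2 at 2-fold. The 9 called lower became 3 with every barcode kept, 4 with doublets kept, 14 at that limit and 2 at 2-fold. The 9 higher calls of listed genes became 5 without the 5 cells with most UMIs of the gene. They became 14 at that limit, 3 at 2-fold and 5 with at least 100 UMIs. The 16 lower calls became 9 with every barcode kept, 10 at Leiden resolution 1 and 27 with every cell weighing the same. They became 31 at that limit, 6 at 2-fold and 8 with at least 100 UMIs. Added after seeing the data, leaving out barcodes of both libraries gave 3.45 for Fabp4 in endothelial-like cells. Depth limits low genes: the Lpl ratio of classical monocyte-like cells, from 16 and 36 UMIs, has an interval of 1.24 to 4.44, and clustering moved it from 2.30 to 11.2.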

Other observations

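Some of the 10 genes were high in cell types outside the classes described above. Type 2 alveolar epithelial-like cells, which make surfactant, had 347 and 574 CPM of Fabp5, a ratio of 1.65 (1.53 to 1.78), and 126 and 78.6 CPM of Plin2, a ratio of 0.622 (0.518 to 0.743). Type 1 alveolar epithelial-like cells, with 41 in the S100A4-11 library and so without a ratio, had 413 and 333 CPM of Abca1, a range that overlaps that of lymphatic endothelial-like cells. Innate lymphoid or gamma-delta T-like cells had 118 and 124 CPM of Pparg. Smooth muscle-like cells had 444 and 549 CPM of Apoe. Conventional dendritic-like cells had 168 and 42.5 CPM of Apoe, a ratio of 0.253 (0.172 to 0.362).

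Of 18 genes that tissue dissociation is known to raise, such as Fos and Egr1, all 18 had ratios below 1 in endothelial-like cells. There 7 were called lower, against 4.35% of all genes, and the median log2 ratio was -0.49. In neutrophil-like cells 8 of 18 were below 1 and 1 was called lower, against 5.36%, with a median of 0.01. Those below 1 numbered 13 in alveolar and 10 in interstitial macrophage-like cells and 12 in fibroblast-like cells. They numbered 5 in immature granulocyte-like, 4 in nonclassical and 3 in classical monocyte-like cells. In immature granulocyte-like cells 3 were called higher, against 2.98%, and 2 lower, against 3.09%.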
